A study of Caenorhabditis elegans with 2 samples.

Results

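The aspartyl proteases, the cathepsin-like cysteine proteases and the lysozymes of the nematode Caenorhabditis elegans were followed here as a set of 44 genes of 19973 protein-coding genes on the nuclear chromosomes. The genes were taken by symbol, and the families were picked with earlier results of these data known. They comprise 17 aspartyl protease genes (asp), 8 cathepsin B-like genes (cpr), 1 cathepsin L gene (cpl-1), 2 cathepsin Z genes (cpz), 10 lysozyme genes (lys) and 6 invertebrate-type lysozyme genes (ilys). For each gene the strongest region whose summit lay from 1000 bp upstream to 200 bp downstream of an annotated transcript start was taken from the authors' pooled list and from the list of each replicate.

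PQM-1 occupancy was measured by chromatin immunoprecipitation followed by sequencing, a method that recovers the DNA to which a protein is crosslinked. The labels give 1 group of 2 biological replicates, both from whole hermaphrodite late embryos of strain OP201, collected 2 h after synchronization by bleaching. All embryos carried unc-119(tm4063) III and the integrated transgene wgIs201, from which PQM-1 fused at its C terminus to GFP and FLAG was expressed, and the antibody was directed against GFP. The control libraries that the labels name were not analysed here. The regions thus report a tagged protein made from a transgene in 1 line, and in whole embryos fewer cells with bound PQM-1 and less PQM-1 bound per cell cannot be told apart. The lists hold no measure of expression by which stage or tissue could be checked.

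PQM-1 is a zinc finger transcription factor that acts opposite to the FOXO factor DAF-16 downstream of insulin signalling, and its known recognition sequence, TGATAAG, was first described as the DAF-16 associated element. TGATAAG is also a form of the GATA site, which the factor ELT-2 binds throughout the differentiated intestine. Many of the genes described here are expressed in the intestine, where aspartyl and cysteine proteases digest food protein or work inside lysosomes and lysozymes cut the cell walls of ingested bacteria.

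Promoter regions in the authors' pooled list were found at 27 of the 44 genes (61.4%), where 41.1% of all protein-coding genes had one. That list is relaxed and holds background by design, so a region in it is not by itself a binding site. The median pooled signal of the 27 genes was 31.95, close to the 31.77 over all genes with a region. Peaks of the authors' reproducible list stood at 4 genes (9.09%, all genes 2.75%), namely the cathepsin B-like genes cpr-9 and cpr-4 and, of the aspartyl proteases, asp-6 and asp-12. A pooled region with an authors' q-value of at most 0.01 stood at the same 4 genes and at asp-1 (5 genes, 11.4%, all genes 4.67%). With each region given only to its nearest transcript start, these counts were 2 genes (all genes 2.01%) and 3 genes (all genes 3.53%). None of the lysozyme genes of either type had a region at that level. The motif TGATAAG lay within 100 bp of the summit at 13 of the 27 genes with a region (48.1%), where 7.88% of all genes with a region had it. With 1 group and genes picked as families, these counts are descriptions set beside the background, and no test was made of their difference from it.

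**Figure D1:**
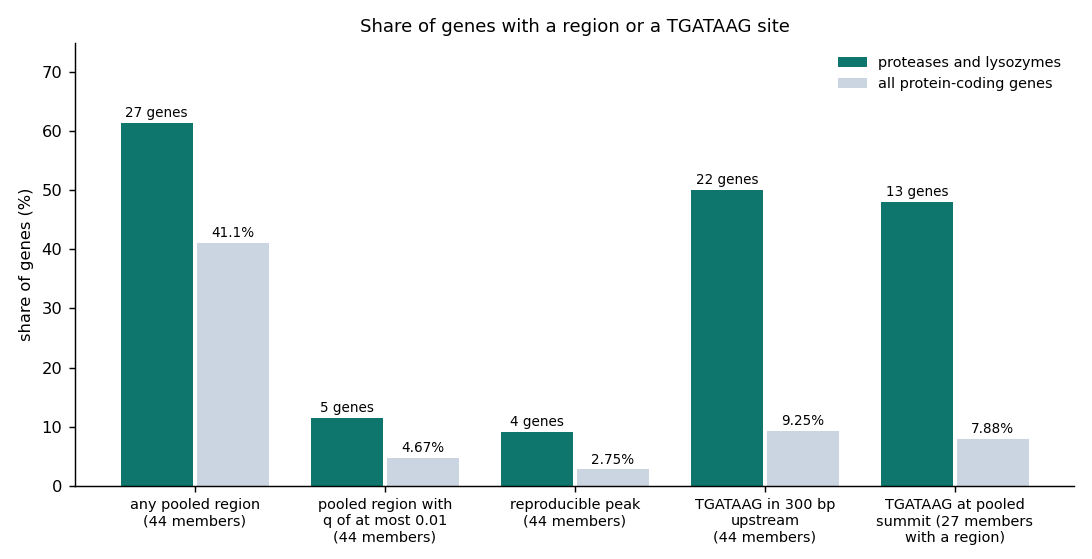
Bars give the share of genes, in percent, with a promoter region in the pooled list, with one at a q-value of at most 0.01, with a reproducible peak, with TGATAAG in the 300 bp upstream of the gene start, and with TGATAAG within 100 bp of the strongest pooled summit. Green bars are the proteases and lysozymes (44 genes, or the 27 with a region for the last pair) and grey bars are all protein-coding genes, and the green bar is the taller of each pair, with TGATAAG in the upstream stretch of 22 of the 44 genes.

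The promoter stretches with the strongest regions that hold TGATAAG are shown first, since the letters in them recur through the results. Capitals mark TGATAAG or, where the motif lies on the other strand, its reverse complement CTTATCA. All coordinates are in build ce11, and the letters were read from the RefSeq genome of the same assembly, WBcel235. The stretch between asp-6 and asp-12 runs from the start of one gene to the start of the other, those of cpr-4 and cpr-3 end at the base before the gene start, and that of asp-1 spans 100 bases to each side of the summit. The strand printed is that of the gene, and for the divergent pair that of asp-12.
asp-6 and asp-12, chrV:8268938-8269209, plus strand: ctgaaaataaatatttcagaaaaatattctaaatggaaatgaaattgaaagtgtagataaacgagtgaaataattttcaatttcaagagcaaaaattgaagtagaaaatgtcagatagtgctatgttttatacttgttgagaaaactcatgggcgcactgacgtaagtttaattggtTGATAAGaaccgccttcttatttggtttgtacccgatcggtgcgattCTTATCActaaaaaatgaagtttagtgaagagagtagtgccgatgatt
cpr-4, chrV:6614424-6614673, plus strand: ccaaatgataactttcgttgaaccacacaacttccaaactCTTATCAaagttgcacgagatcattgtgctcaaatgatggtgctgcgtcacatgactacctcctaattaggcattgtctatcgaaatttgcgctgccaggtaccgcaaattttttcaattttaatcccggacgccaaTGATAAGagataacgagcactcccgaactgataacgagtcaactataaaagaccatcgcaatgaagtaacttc
asp-1, chrV:19051536-19051736, minus strand: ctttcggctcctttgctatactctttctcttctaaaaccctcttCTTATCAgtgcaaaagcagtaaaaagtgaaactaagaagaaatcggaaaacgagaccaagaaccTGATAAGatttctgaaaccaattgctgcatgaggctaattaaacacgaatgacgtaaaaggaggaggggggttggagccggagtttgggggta
cpr-3, chrV:15298701-15298950, minus strand: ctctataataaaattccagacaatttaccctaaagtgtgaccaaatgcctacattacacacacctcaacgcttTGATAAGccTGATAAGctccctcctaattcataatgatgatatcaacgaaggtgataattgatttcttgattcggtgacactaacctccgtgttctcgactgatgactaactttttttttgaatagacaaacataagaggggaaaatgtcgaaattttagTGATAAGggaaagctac
Between asp-6 and asp-12, genes 272 bases apart at their starts, the motif occurs 2 times, once on each strand. The promoter of cpr-4 also has 2 copies, facing opposite ways, and that of cpr-3 has 3 on the strand of the gene, those farther from the gene with 2 bases between them.

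The aspartyl proteases are relatives of pepsin and cathepsin D that work at acid pH. Among the 17 genes, 12 had a pooled region (all genes 41.1%), with signals from 19.62 to 82.47 and a median of 25.93. Signal is the authors' peak signal value, which can be compared within a list but not between lists. The shared region of asp-6 and asp-12 had a pooled signal of 82.47, rank 659 of 27694, with a q-value of 0.00683 and its summit at chrV:8269127. This placed it just inside the reproducible list, whose weakest of 669 peaks had a signal of 82.03. The summit lay 190 bp upstream of asp-6 and 83 bp upstream of asp-12, between the genes, so the region cannot be given to one of them.

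In replicate 1 the region of asp-6 and asp-12 had a signal of 30.34, rank 1406 of 28996, with a q-value of 0.0174. In replicate 2 it had a signal of 49.4, rank 636 of 23228, with a q-value of 0.00465. It was therefore past a q-value of 0.01 in replicate 2 alone, although the summits of both replicates lay 3 bp apart. One copy of TGATAAG was centred 9 bp from the pooled summit and the other 38 bp from it.

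The gene asp-1 encodes an intestinal aspartyl protease. Its region had a pooled signal of 81.57, rank 677, just outside the reproducible list, with a q-value of 0.00665. The summit lay 884 bp upstream of the gene, between genes, which is near the far edge of the promoter window. Replicate 1 gave a signal of 27.51 (rank 1931, q-value 0.0329) and replicate 2 a signal of 52.29 (rank 547, q-value 0.00465), so this region too was past a q-value of 0.01 in replicate 2 alone. Both copies of TGATAAG printed above lay near the summit, at 11 bp and 53 bp, but no copy lay in the 300 bp directly upstream of the gene.

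The other aspartyl protease genes had weaker regions. At asp-8 the pooled signal was 38.02 (rank 5819, q-value 0.343), with the summit 19 bp downstream of the start in coding sequence and signals of 17.58 and 19.06 in replicates 1 and 2. At asp-5, which lies next to asp-12, the pooled signal was 30.89 (rank 10298, q-value 0.616). Its replicates differed, with a signal of 11.96 in replicate 1 at a summit 961 bp upstream and of 32.06 in replicate 2 at a summit 251 bp upstream. The remaining 7 genes with a pooled region, asp-2, asp-3, asp-4, asp-14, asp-16, asp-18 and asp-19, had signals from 19.62 to 25.93, all below the median of 31.77 over all genes with a region. Among them asp-3 and asp-4, cathepsin D-like enzymes that act in necrotic death of neurons, had pooled signals of 23.46 and 19.62. A promoter region was found only in replicate 1 for asp-7 (signal 10.4) and asp-9 (signal 13.36), and in no list for asp-13, asp-15 and asp-17.

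The sites nearest to the summits of 7 further genes with weaker regions are shown with 12 bases to each side, on the strand that reads TGATAAG, to let the flanks be compared with those in the stretches above.
asp-2, chrV:9202908-9202938, minus strand: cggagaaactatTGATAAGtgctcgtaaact
asp-4, chrX:13221662-13221692, plus strand: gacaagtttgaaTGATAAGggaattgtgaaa
asp-5, chrV:8272192-8272222, plus strand: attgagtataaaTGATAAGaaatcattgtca
cpr-1, chrV:11975392-11975422, plus strand: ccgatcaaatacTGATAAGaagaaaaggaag
cpz-2, chrV:13381135-13381165, minus strand: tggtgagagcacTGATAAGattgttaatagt
lys-1, chrV:10277762-10277792, minus strand: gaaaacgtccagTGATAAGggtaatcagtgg
lys-2, chrV:10281612-10281642, plus strand: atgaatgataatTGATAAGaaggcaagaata
The site of asp-4 was 7 bp from its summit, the closest of the set, and that of asp-5 was 73 bp from it, the farthest. Over the nearest sites of all 12 distinct regions with TGATAAG at the summit, an A stood 2 bases before the motif in 8 (66.7%), against 50.8% of 573 such sites over all genes, a place picked out after the sites were seen. The base after the motif was A in 7 of the 12 (58.3%), against 56.5%.

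**Figure D2:**
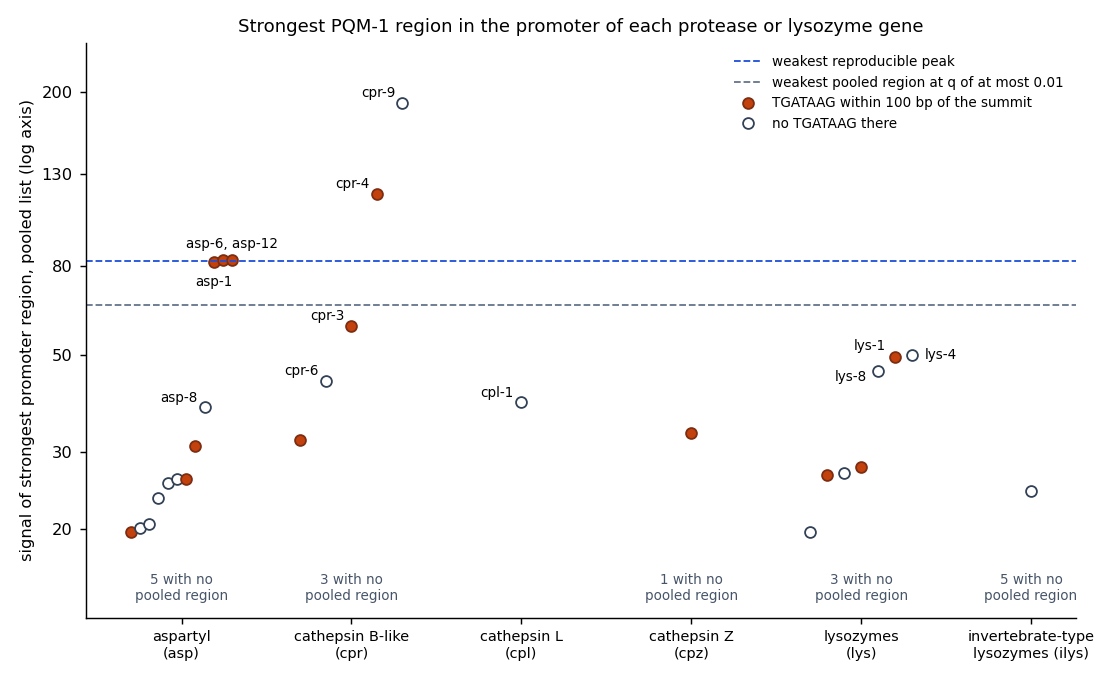
Each point is 1 gene, placed by enzyme family along the horizontal axis and by the signal of its strongest promoter region in the pooled list on a logarithmic vertical axis, with filled points for genes that have TGATAAG within 100 bp of the summit and dashed lines at 82.03, the weakest reproducible peak, and 65.05, the weakest pooled region at a q-value of at most 0.01. Points above the lower line are cpr-9, cpr-4, asp-6, asp-12 and asp-1, and all lysozyme points lie below 50, with the highest, lys-4, at 49.89.

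Cathepsin B-like enzymes are lysosomal or secreted cysteine proteases. Of the 8 cpr genes, 5 had a pooled region (all genes 41.1%), with signals from 31.95 to 189.4 and a median of 58.44, above the family medians of asp and lys. The strongest region of any protease or lysozyme gene stood upstream of cpr-9, with a pooled signal of 189.4, rank 48, and a q-value of 0.0019. Replicate 1 gave 93.99 (rank 32, q-value 0.00205) and replicate 2 gave 97.48 (rank 77, q-value 0.00465), so it was strong in both. Its summit, 858 bp upstream of cpr-9, lay within 200 bp of the tRNA gene WBGene00014406 and 398 bp upstream of gcy-33, a guanylate cyclase gene. TGATAAG was not within 100 bp of that summit, and the nearest copy was 197 bp away. Without regions beside small RNA genes the reproducible count was 3 (all genes 2.51%). Whether the region belongs to cpr-9, gcy-33 or the tRNA gene was not tested.

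The region of cpr-4, a cathepsin B-like gene whose product can be secreted, stood 119 bp upstream of the gene with its summit at chrV:6614555. The pooled signal was 117.2, rank 245, with a q-value of 0.0019. Replicate 1 gave 38.99 (rank 649, q-value 0.0054) and replicate 2 gave 77.93 (rank 177, q-value 0.00465), with the summits 3 bp apart. It was thus among the 669 strongest regions of each replicate. The 2 copies of TGATAAG were centred 49 bp and 88 bp from the pooled summit.

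The next in order was cpr-3, just outside the q-value limit, with a pooled signal of 58.44, rank 1699, and a q-value of 0.0221. The weakest pooled region at a q-value of at most 0.01 had a signal of 65.05. Replicates 1 and 2 gave signals of 25.01 (rank 2721) and 29.28 (rank 2869), and neither passed a q-value of 0.05. Its 3 copies of TGATAAG lay 18, 27 and 133 bp from the summit. At cpr-6, another cathepsin B-like gene, the pooled signal was 43.7 (q-value 0.179) with the summit 114 bp inside the gene, in coding sequence. That region had a signal of 31.91 in replicate 1 (rank 1189, q-value 0.013) and was not listed in replicate 2. At cpr-1, a gut protease gene, the pooled signal was 31.95 (rank 9393), with signals of 14.15 and 23.28 in replicates 1 and 2 at summits 203 bp apart.

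The divergent genes cpr-5 and cpr-8 shared a promoter region in replicate 1 alone, with a signal of 14.19 and a rank of 14777, and cpr-2 had none in any list. Cathepsin L, which processes yolk and is needed for embryonic development, is encoded by cpl-1. Its pooled region, 143 bp upstream, had a signal of 38.95 (rank 5465, q-value 0.307), and the replicate signals of 14.91 and 24.23 came from summits 301 bp apart. Of the cathepsin Z genes, cpz-2, which shares its region with ifbp-1, had a pooled signal of 33.16 and replicate signals of 15.52 and 16.87 at summits 7 bp apart. For cpz-1, whose product takes part in moulting, replicate 1 gave 28.37 (rank 1754, q-value 0.0254) and replicate 2 gave 16.04 (rank 16127) at a summit 477 bp away. Both summits lay inside the gene, 86 bp downstream and 391 bp upstream of an internal transcript start. No pooled promoter region was listed for cpz-1. The reproducible count of cysteine protease genes was thus 2 (all genes 2.75%), both of the cathepsin B-like family. They are cpr-4 and cpr-9, and the peak of cpr-9 lay beside a tRNA gene and nearer to gcy-33.

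Lysozymes cleave the peptidoglycan of bacterial cell walls, and several of the worm's protist-type lysozymes are induced by infection. Of the 10 lys genes, 7 had a pooled region (all genes 41.1%), with a median signal of 27.74. The strongest was that of lys-4, 772 bp upstream of the gene, with a pooled signal of 49.89, rank 2649, and a q-value of 0.0712. At lys-1 the pooled signal was 49.48 (rank 2701, q-value 0.0754) at 81 bp upstream, and at lys-8 it was 46.06 (rank 3333, q-value 0.132) at 141 bp upstream. None of these regions passed a q-value of 0.05 in the pooled list.

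The replicates gave these 3 genes different places in their lists, which differ in length. The region of lys-4 was in the top 28.2% of replicate 1 (signal 17.74) and in the top 8.98% of replicate 2 (signal 32.43, q-value 0.0463). That of lys-1 was in the top 47.2% (signal 14.64) and the top 8.21% (signal 33.22, q-value 0.038). That of lys-8 was in the top 51.5% (signal 14.14) and the top 6.44% (signal 36.28, q-value 0.0144). All 3 therefore passed a q-value of 0.05 in replicate 2 alone. Weaker pooled regions stood at lys-9 (27.74), lys-6 (26.83), lys-2 (26.54) and lys-7 (19.64), the last an antibacterial lysozyme gene known as a target of DAF-16. A promoter region at lys-5 was listed in replicate 1 alone, with a signal of 18.07, and lys-3 and lys-10 had none in any list.

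Of the 6 genes of invertebrate-type lysozymes, ilys-4 alone had a pooled region (all genes 41.1%). Its pooled signal was 24.44 and its replicate 1 signal 12.94, and it was not listed in replicate 2. The others, ilys-1, ilys-2, ilys-3, ilys-5 and ilys-6, had no promoter region in any list, among them ilys-3, which digests Gram-positive bacteria in the gut. They make up 5 of the 11 genes without a promoter region in any list, 25% of the 44, where 45.9% of all genes had none. Short reads that match several copies of a gene can be lost in mapping, and neither the read length nor the mapping rules are stated in the sources used here. Over the promoters of these 11 genes, the share of 36-base words found once in the genome ran from 63.9% to 100%, with a median of 98.2%, against a median of 100% over the 44. The lowest were lys-10 (63.9%) and lys-3 (66.7%), and the part of repeats in their missing regions was not tested.

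The replicates differed in how many of the genes they held. Replicate 1 listed a promoter region at 30 genes (all genes 40.9%) and replicate 2 at 20 (all genes 37.2%), of which 17 were in both lists (38.6%, all genes 25.9%). Replicate 1 alone held 13 further genes and replicate 2 alone held 3. Of all 19973 genes, replicate 1 listed 8173 and replicate 2 listed 7422, of which 5167 were in both lists. Among the 669 strongest regions of replicate 1 were those of 2 genes (all genes 2.54%), cpr-9 and cpr-4, and the same 2 had a q-value of at most 0.01 there (all genes 3.55%). In replicate 2 the 669 strongest held those of 5 genes (all genes 2.67%), with asp-1, asp-6 and asp-12 added, and the same 5 had a q-value of at most 0.01 (all genes 4.88%). Of the 4 genes in the reproducible list, asp-6 and asp-12 were thus among the 669 strongest in replicate 2 alone. In replicate 1 their shared region was listed at rank 1406.

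Across the 17 genes in both lists the replicate signals had a Spearman coefficient of 0.546 and a Pearson coefficient of 0.853, and 0.338 and 0.585 over the 15 left without cpr-9 and cpr-4. Over the 5167 genes of the whole annotation in both lists the coefficients were 0.538 and 0.803. These are descriptions across genes, which share the libraries, and asp-6 and asp-12 share 1 region. Replicate summits lay within 50 bp of each other at 8 of the 17 genes (47.1%), against 34.8% of all genes in both lists, with medians of 51 bp and 98 bp. The 8 include the 5 genes past a q-value of 0.01, cpr-3, lys-1 and cpz-2. At asp-5 the replicate summits were 710 bp apart, so its lists hold different regions.

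**Figure D3:**
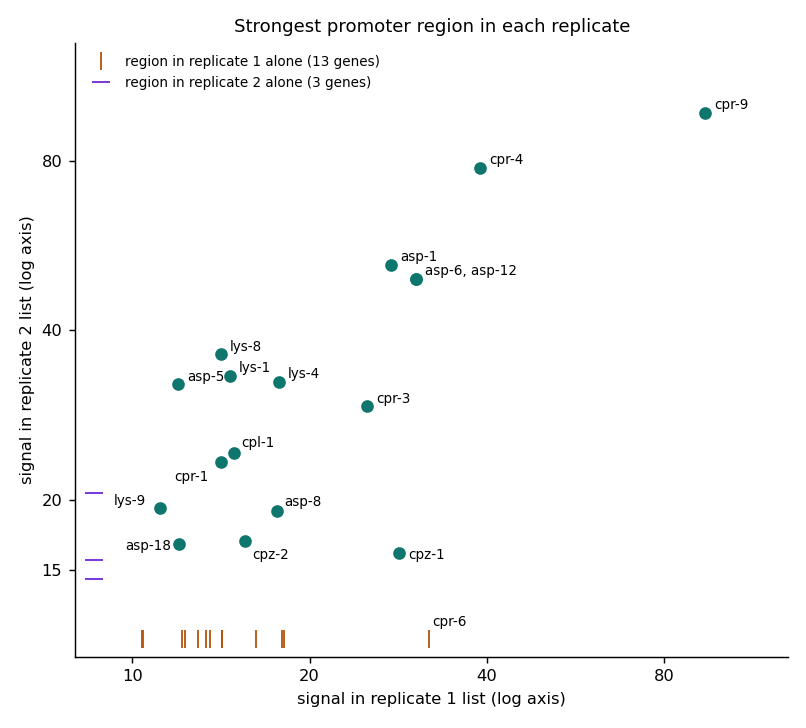
The horizontal axis gives the signal of each gene's strongest promoter region in replicate 1 and the vertical axis that in replicate 2, both logarithmic, with 1 point per gene (asp-6 and asp-12 share a point) and ticks along the axes for the 13 genes listed in replicate 1 alone and the 3 in replicate 2 alone. The points of cpr-9 and cpr-4 stand highest in both, those of lys-8, lys-1 and asp-5 lie between 11.96 and 14.64 in replicate 1 and between 32.06 and 36.28 in replicate 2, and cpr-6 is the highest tick in replicate 1 without a region in replicate 2.

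Most summits lay close upstream of the genes. Of the 27 strongest pooled summits, 23 (85.2%) were upstream of the nearest transcript start, against 84.2% of those of all genes, a share that the shape of the window sets in part. The median distance was 157 bp against 266 bp over all genes, and 20 summits (74.1%) lay within 300 bp against 54.2%. The summits of asp-1, cpr-9, lys-4, lys-7 and asp-18 were the far ones, at 884, 858, 772, 968 and 832 bp upstream. Of the 4 summits downstream of a start, those of cpr-6, asp-8 and asp-16 lay in coding sequence and that of asp-3 in the 5′ UTR. Some upstream summits also lay inside genes. Those of asp-18 and asp-14 were in coding sequence of scl-19 and fah-1. Outside coding sequence, that of lys-7 was inside srbc-33 and that of ilys-4 inside both atic-1 and ilys-4.

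TGATAAG was searched on both strands and had to lie whole inside the window, as had 4 other motifs. ACTGATAA is the longer form of the GATA site preferred by ELT-2 and overlaps TGATAAG where a G follows, GTAAACA is the site of FOXO factors such as DAF-16, CACGTG is the E-box, and GAGAGAGA is a repeat common in worm promoters. At the summits TGATAAG was found at asp-1, asp-2, asp-4, asp-5, asp-6, asp-12, cpr-1, cpr-3, cpr-4, cpz-2, lys-1, lys-2 and lys-9, in 12 of 26 distinct regions. The distance from the summit to the centre of the nearest copy had a median of 31 bp, ran from 7 to 73 bp, and was within 50 bp for 10 genes. Over the 647 genes of the whole annotation with TGATAAG near the summit the median was 42 bp, and 61.4% were within 50 bp. ACTGATAA was within 100 bp of the summit at 7 genes (25.9%, all genes 4.36%), GTAAACA at 0 (all genes 2.77%), CACGTG at 2, cpr-1 and lys-4 (all genes 4.82%), and GAGAGAGA at 1, cpl-1 (all genes 4.52%). A match is a run of letters and says nothing on which factor binds it.

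**Figure D4:**
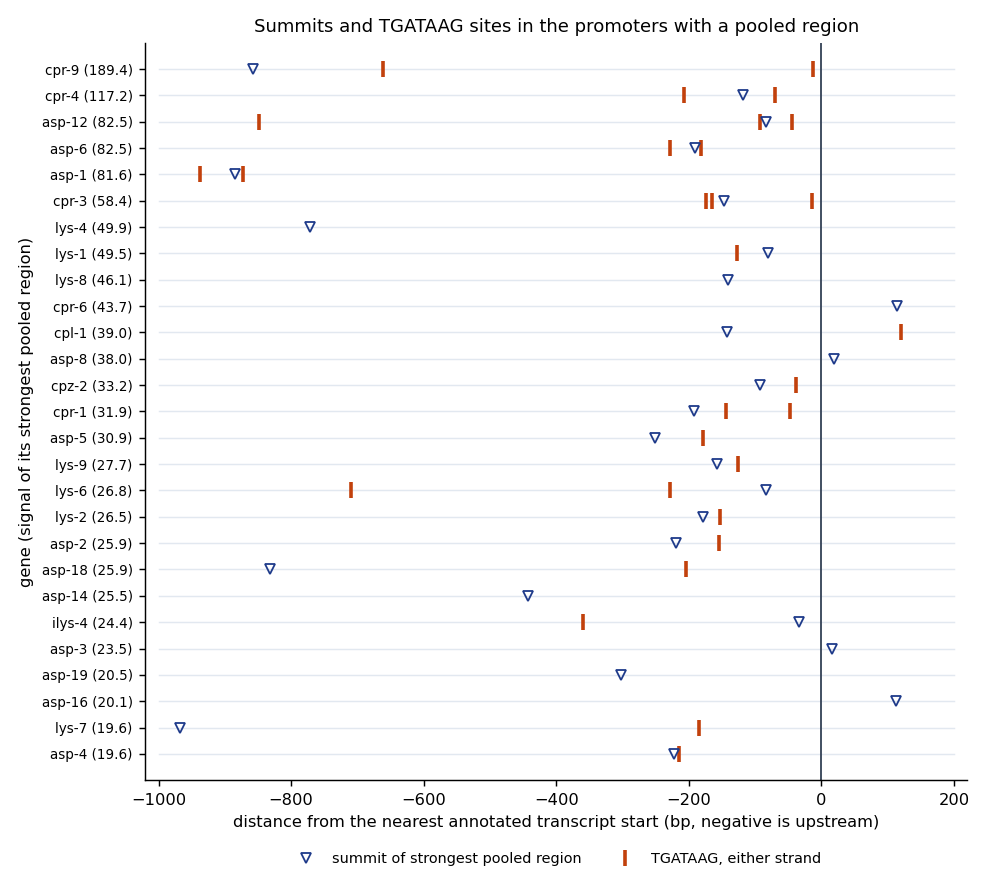
Each line is the promoter of 1 of the 27 genes with a pooled region, ordered by signal from the top, with the horizontal axis in bp from the nearest annotated transcript start (negative upstream), a triangle at the summit and an orange tick at each TGATAAG on either strand. Triangles sit on or beside ticks at asp-12, asp-6, asp-1, cpr-3 and asp-4, whereas those of cpr-9, lys-4 and asp-18 lie far upstream with no tick within 100 bp.

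The motif was also counted without regard to any region, in the 300 bp upstream of each gene start. TGATAAG was there in 22 of the 44 genes (50%), where 9.25% of all genes had it, and ACTGATAA in 11 (25%, all genes 4.39%). For the other motifs the counts were 3 for GTAAACA (all genes 5.01%), 2 for CACGTG (all genes 5.74%) and 2 for GAGAGAGA (all genes 3.69%). By family, TGATAAG was upstream of 8 of 17 asp genes, 5 of 8 cpr genes, both cpz genes, 6 of 10 lys genes and 1 of 6 ilys genes, and not of cpl-1. At least 2 copies were present for 6 genes, among them asp-9 with 2 and cpr-3 with 3, where 0.971% of all genes had as many. The genes asp-6 and asp-12 are each counted here, although they share the same 2 copies. These upstream counts use the genome sequence alone and do not depend on the libraries.

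Having the motif did not go along with having a strong region in every case. Of the 22 genes with TGATAAG upstream, 16 had a pooled region (all genes with the motif 45.1%), and of the 22 without it 11 had one (all genes without it 40.7%). A q-value of at most 0.01 was reached by 4 of the 22 with the motif (all genes with it 4.98%) and by asp-1 alone of the 22 without (all genes without it 4.63%). The motif was upstream of asp-7, asp-9, cpr-8, cpz-1, ilys-1 and lys-10, none of which had a pooled region. Pooled signal had a median of 33.16 at the 13 genes with TGATAAG at the summit and of 26.38 at the 14 without, and over all genes these medians were 36.16 and 31.52. The strongest region, that of cpr-9, was among those without.

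The genes lie unevenly on the chromosomes, with 26 of 44 (59.1%) on chromosome V, which holds 25% of all genes. Of these 26, 4 had a reproducible peak (all genes of chromosome V 2.02%) and 18 a pooled region (all genes of chromosome V 32.9%). A pooled q-value of at most 0.01 was reached by 5 of the 44 genes (all genes 4.67%), all of them on chromosome V. Among these 5, asp-6 and asp-12 share the same region. The share of all chromosome V genes at this limit was not counted, so no excess on that chromosome can be read from it. In 8 runs of neighbours, joined where gaps were at most 10000 bp, stood 22 of the genes. The run of asp-6, asp-12 and asp-5 had its strongest pooled region between asp-6 and asp-12 at 82.47 and the next, of 48.3 (rank 2906), just past the 3′ end of asp-6.

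In the run of lys-1, lys-2 and lys-3 the strongest pooled region was not in a promoter. It lay at the 3′ end of lys-2, with a signal of 55.77, rank 1934, and a q-value of 0.0308, above the 49.48 at the start of lys-1 and the 26.54 upstream of lys-2. In replicates 1 and 2 regions near it had signals of 20.49 and 36.66. The run of asp-17, asp-16, asp-15 and asp-1 held regions of 45.15 and 48.98 within asp-16 and asp-15, outside the promoter windows, beside the 81.57 upstream of asp-1. The run of ilys-1, ilys-2 and ilys-3 held 2 pooled regions, of 30.41 and 24.63, between ilys-3 and ilys-2.

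**Figure D5:**
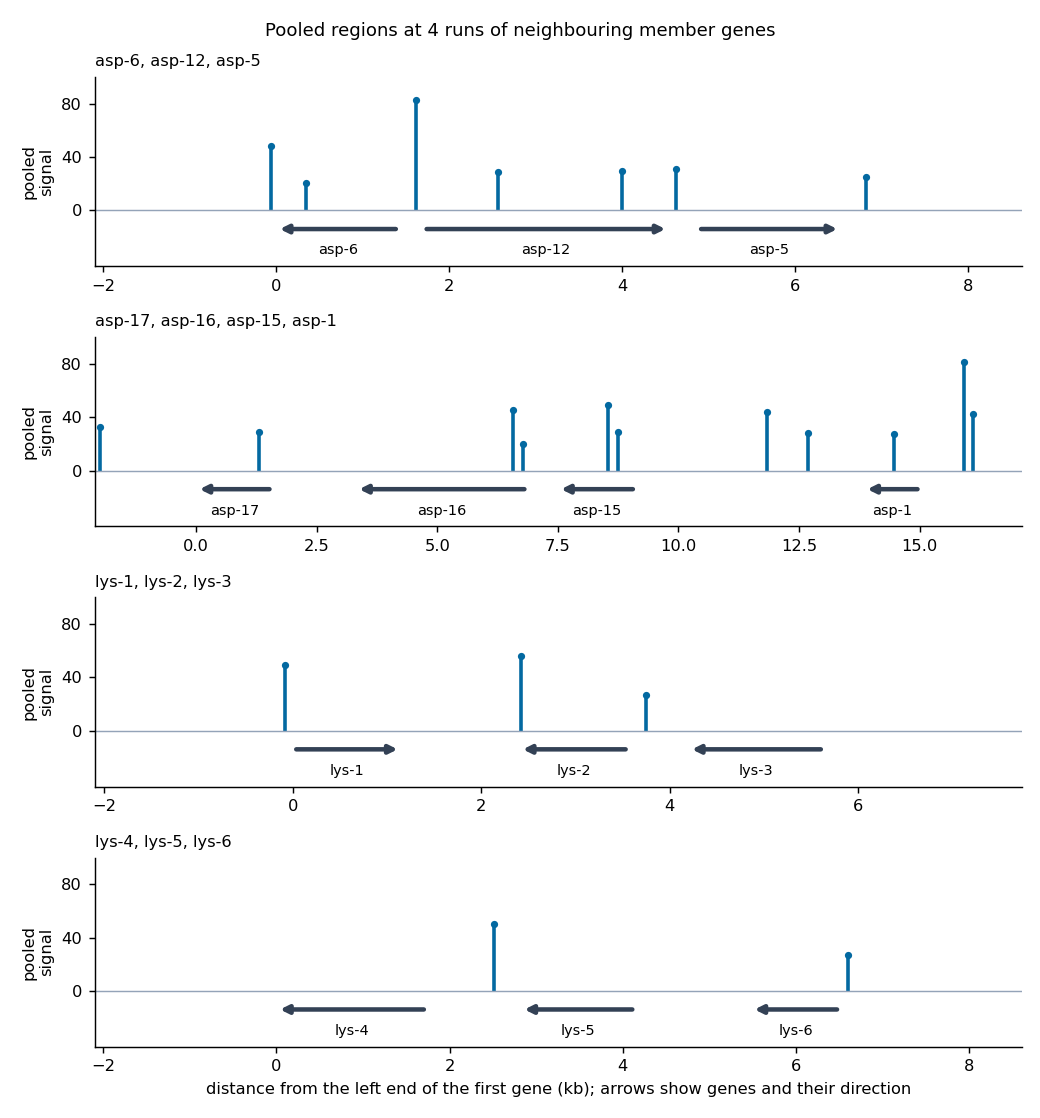
Each panel is a run of neighbouring genes, with distance from the left end of its first gene in kb on the horizontal axis, arrows for the genes and their direction, and vertical lines for pooled regions at their summits with the signal as height. The tallest line stands between asp-6 and asp-12 in the first panel (82.47), upstream of asp-1 in the second (81.57), at the 3′ end of lys-2 in the third (55.77) and between lys-4 and lys-5 in the fourth (49.89).

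Reproducible peaks also stood farther from some of the genes. Within 5000 bp of the gene body, 7 of the 44 had such a peak (15.9%, all genes 9.2%). Besides the 4 with a promoter peak these were asp-5, for which it is the peak of asp-6 and asp-12 at 3258 bp upstream, cpl-1 and asp-19. The peak near cpl-1 had a signal of 94.37, rank 465, and lay 3073 bp downstream of the gene start, beside a small RNA gene. The peak near asp-19 had a signal of 118.9, rank 234, at 5502 bp downstream of the gene start. No assignment of these distal peaks to a gene was tested.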

How the data were processed

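The samples are 2 biological replicates of 1 group. The authors called peaks per replicate and on pooled replicates, and derived a reproducible list from these with the irreproducible discovery rate method, as the deposited README text states. The deposited signal is the authors' peak signal value, and the deposited −log10 q-value is the authors' per region. The choice of aligner and peak caller was not given in the sources used here, nor was the reproducibility threshold, and read depth is unknown, so no interval from depth is given. The ce11 lists were used with the Ensembl release 115 annotation and the RefSeq genome of WBcel235, to which ce11 corresponds. The ce10 reproducible list gave only a length, 973 peaks, for an alternative.

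A region counted for every gene whose promoter held its summit. Small RNA genes (tRNA, snoRNA, snRNA, rRNA) were those within 200 bp of a summit. Sequence uniqueness was the share of 36-base promoter words found once in the genome. Genes and lists were chosen with earlier results of these data known. Named in full are genes with a reproducible peak or a pooled q-value of at most 0.01, the 20 strongest, those beside each limit, those high in one replicate and missing in the other, and those with no promoter region. Values of further genes were picked out after being seen.

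Alternatives were other promoter windows, the nearest start only, any overlap, each replicate alone, other list lengths and q-value limits, and windows of 50 and 200 bp around the summit. Leaving out regions beside small RNA genes and counting each region once were chosen after seeing the data. Scripts ran under Python 3.11.15 with pandas 2.3.3, numpy 2.4.6 and scipy 1.17.1, and figures were drawn with matplotlib 3.10.9. The assignment and the motif search were tested on simulated data over the 19973 genes, where 200 of 200 planted regions and 200 of 200 planted sites were found.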

Additional observations from a re-analysis of the deposited data

How the results depend on the processing

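Of 34 recomputed values, 23 were within 1.5 times the reported count or, for the median and the correlation, equal to it, and 11 were not. The 5 genes with a pooled q-value of at most 0.01 became 3 with promoters from 500 bp upstream to 100 bp downstream, which leaves out cpr-9 and asp-1 (all genes 3.49%), and 3 with the nearest transcript start only (all genes 3.53%). At a q-value of at most 0.001 they became 0, as did the count over all genes. The 4 genes with a reproducible peak became 2 with the nearest start only, where the peak of cpr-9 goes to a nearer gene and the shared peak to asp-12 (all genes 2.01%), and 2 in the stronger 50% of that list (all genes 1.33%). Leaving out 1 replicate gave 2 to 5 genes for both counts, and neither count from replicate 1 alone held asp-1, asp-6 or asp-12. With the whole motif required inside 50 bp to each side of the summit, in place of 100 bp, TGATAAG was at 8 genes rather than 13 (all genes 4.47%), and cpr-1 and cpr-4, whose sites are centred at 48 and 49 bp, drop out by their outer bases. The rank correlation of the replicates became 0.3333 (13 genes) and 0.4539 (23 genes) in the narrower and wider promoter windows. The median signal, 31.95 in the main window (all genes 31.77), became 31.77 in the wider window, where that over all genes was 32.48. Counts with any region ran from 20 genes in replicate 2 alone (all genes 37.2%) to 34 in the wider window (all genes 55.8%). No paired analysis was possible because the series holds 1 group. Depth is unknown, so what it limits could not be assessed.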

Other observations

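Other genes of digestion, lysosomes and gut identity were counted in the same way, from lists chosen with earlier results of these data known. Among 31 saposin-like genes, which encode membrane-active proteins, 1 had a pooled q-value of at most 0.01 (all genes 4.67%), the pore-forming peptide gene spp-5. Its region had a signal of 68.91 (rank 1060, q-value 0.00802), with the summit 57 bp upstream and TGATAAG beside it. TGATAAG lay in the 300 bp upstream of 11 of the 31 genes (all genes 9.25%). Among 12 serine carboxypeptidase genes 2 had such a q-value (all genes 4.67%), pcp-1 (70.71, q-value 0.00656) and ctsa-1.2 (65.13, q-value 0.00931). At ctsa-1.2, 3 copies of TGATAAG lay near the summit. Of the 12 genes, 8 had TGATAAG upstream (all genes 9.25%), while none was in the reproducible list (all genes 2.75%). The 8 cystatin and serpin genes encode protease inhibitors, and the 8 lipl genes encode lysosomal lipases. These and the 22 antimicrobial peptide genes had 0 at a q-value of at most 0.01 (all genes 4.67%). Any pooled region stood at 6, 2 and 1 of them, in that order (all genes 41.1%).

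Reproducible peaks stood at 2 of 21 vacuolar ATPase genes (all genes 2.75%), whose pump acidifies lysosomes, namely vha-8 (93.94, rank 472) and vha-13 (86.81, rank 575). TGATAAG was upstream of 1 of the 21 (all genes 9.25%). Of 21 genes of lysosomal membrane proteins and hydrolases, ctns-1 alone, the cystine transporter gene, had a reproducible peak (123.8, rank 216, all genes 2.75%). A further list of 9 genes held endoderm regulators together with pqm-1 and hlh-30, the gene of the lysosomal regulator related to TFEB. Of these 9, 2 had a reproducible peak (all genes 2.75%), hlh-30 (84.54, rank 620) and elt-2, the intestinal GATA factor gene (82.84, rank 652). Among the reproducible peaks of these lists, only that of elt-2 had TGATAAG within 100 bp of the summit.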
